A study of Mus musculus with 12 samples.

Results

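The goblet cell genes examined here are 8 genes, Muc2, Tff3, Spdef, Clca1, Fcgbp, Agr2, Zg16 and Spink4, out of 21853 protein-coding genes of the GENCODE M21 annotation of GRCm38. They were chosen by name as goblet cell genes, and for each of them all peaks were collected that touched the gene body or the 5 kb on either side of it in the crypts and villi lists of H3K4me3, H3K4me1, H3K27me3 and H3K9me3, 8 lists in all. The peaks come from ChIP-Rx, a form of ChIP-seq in which fly chromatin is added as a spike-in before the immunoprecipitation, on small-intestinal tissue of mice. Villi were scraped off and crypts were then released with EDTA, and both are whole fractions that hold several cell types. Each compartment and modification had 1 library, with 12 libraries in the series including the inputs and H3K9me2, and the strain, age, sex and number of animals behind a library are not given in the sources used here. No treatment or genotype separated the groups.

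Goblet cells make the mucus that covers the intestinal epithelium. They arise in crypts from secretory progenitors and move up the villi, and in the small intestine they are a minority among absorptive enterocytes. Muc2 is the gel-forming mucin and the main structural component of that mucus. Fcgbp, Clca1 and Zg16 are secreted with it, Zg16 being a lectin that binds bacteria, Tff3 is a trefoil peptide of epithelial repair and Spink4 is a Kazal-type peptide of goblet cells. Agr2 is a protein disulfide isomerase of the endoplasmic reticulum that mucin production needs, and Spdef is a transcription factor of goblet and Paneth cell maturation. H3K4me3 is typical of promoters in use or held ready, H3K4me1 of enhancers and promoter flanks, H3K27me3 of Polycomb-repressed genes and H3K9me3 of heterochromatin.

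The sequence just upstream of a RefSeq start site is shown for the members that the RefSeq promoter table holds, Agr2, Fcgbp, Muc2 and Spdef, since the peaks described below lie at or next to it. Each is 250 bases long, read from RefSeq on GRCm38.p6, and capitals mark matches on either strand to 6 motifs, the TATA motif TATAAA, the E-box CAGCTG, a second E-box spelled CAGATG, the GATA motif GATAAG, the ETS motif CCGGAA and the Klf motif CACCC. Muc2 is at chr7:141690090-141690339 on the plus strand, Fcgbp at chr7:28070986-28071235 on the plus strand, Agr2 at chr12:35992675-35992924 on the plus strand and Spdef at chr17:27728952-27729201 on the minus strand.
Muc2: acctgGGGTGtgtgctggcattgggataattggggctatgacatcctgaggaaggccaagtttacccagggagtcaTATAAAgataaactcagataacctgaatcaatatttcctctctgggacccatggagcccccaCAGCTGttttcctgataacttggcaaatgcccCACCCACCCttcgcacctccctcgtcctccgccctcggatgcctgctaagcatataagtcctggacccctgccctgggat
Fcgbp: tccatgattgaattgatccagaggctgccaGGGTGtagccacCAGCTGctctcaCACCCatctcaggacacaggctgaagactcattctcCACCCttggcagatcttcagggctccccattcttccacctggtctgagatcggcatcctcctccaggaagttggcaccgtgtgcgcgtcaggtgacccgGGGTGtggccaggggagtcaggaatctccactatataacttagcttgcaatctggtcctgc
Agr2: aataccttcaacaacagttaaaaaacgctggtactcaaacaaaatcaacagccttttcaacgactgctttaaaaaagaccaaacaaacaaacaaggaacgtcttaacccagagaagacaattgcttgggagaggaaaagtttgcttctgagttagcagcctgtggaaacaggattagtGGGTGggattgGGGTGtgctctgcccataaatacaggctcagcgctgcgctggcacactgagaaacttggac
Spdef: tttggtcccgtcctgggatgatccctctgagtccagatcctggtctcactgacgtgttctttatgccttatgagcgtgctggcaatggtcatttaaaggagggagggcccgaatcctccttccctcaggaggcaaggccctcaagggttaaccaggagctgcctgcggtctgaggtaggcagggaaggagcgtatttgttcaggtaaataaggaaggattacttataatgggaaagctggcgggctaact

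The Muc2 stretch held TATAAA on the forward strand from −174 to −169, a motif found in 12.4% of the 32851 RefSeq mouse promoter stretches of the same length. CAGCTG was found in Muc2 and Fcgbp and in 13.0% of all stretches, and CACCC was found in Muc2, Fcgbp and Agr2 and in 52.0% of all stretches. The 2 forward CACCC matches of Muc2 share a base. The second E-box, the GATA motif and the ETS motif, found in 14.4%, 6.55% and 12.0% of all stretches, had no match in the 4 members, and the Spdef stretch held none of the 6 motifs. The 4 stretches had 5 CpG sites for Agr2, 5 for Fcgbp, 4 for Muc2 and 7 for Spdef, against a median of 6 and quartiles of 2 and 16 over all stretches.

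Active marks were called over most of the members in both compartments. H3K4me3 was called in the window of 7 of the 8 members in crypts and 5 in villi, where a window is the gene body with 5 kb on each side, against 63.2% and 63.5% of all protein-coding genes. H3K4me1 was called over 7 members in each compartment, against 69.1% of all genes in crypts and 68.8% in villi. H3K27me3 was called over 3 members in crypts, Muc2, Spdef and Zg16, and over these and Spink4 in villi, against 17.9% and 23.0% of all genes. H3K9me3 was called over none in crypts and over Spink4 in villi, against 3.89% and 3.11%. With 8 members, these counts lay at or a few genes above the background for H3K4me3, H3K4me1 and H3K27me3, and nothing particular to the members is read from them. Fcgbp and Spink4 had window H3K4me3 in crypts only, as did 1.14% of all genes, and Spink4 had window H3K27me3 in villi only, as did 5.86%.

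More H3K27me3 peaks were called over the members in villi than in crypts, as in the whole lists of that mark, and slightly fewer H3K4me3 peaks, which was not so in the whole lists. There were 4 H3K27me3 peaks over members in crypts and 12 in villi, covering 10425 and 26726 bp of the windows. H3K4me3 went from 9 peaks and 14269 bp in crypts to 7 peaks and 11261 bp in villi, and H3K4me1 had 18 peaks in each compartment, covering 34825 and 34468 bp. The whole H3K4me3 list went the other way, from 16489 peaks in crypts to 16977 in villi. The whole H3K27me3 list was also longer in villi, 13797 peaks against 7611. When the villi list was shortened to its 7611 highest-scoring peaks, 5 of the 12 peaks over members remained, at Muc2, Spdef and Zg16, and they covered 17021 bp against the 4 peaks and 10425 bp of crypts. Of these, Zg16 alone held 11298 bp in villi and 5945 bp in crypts, in a window set by a GENCODE gene model far longer than the RefSeq one.

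**Figure D1:**
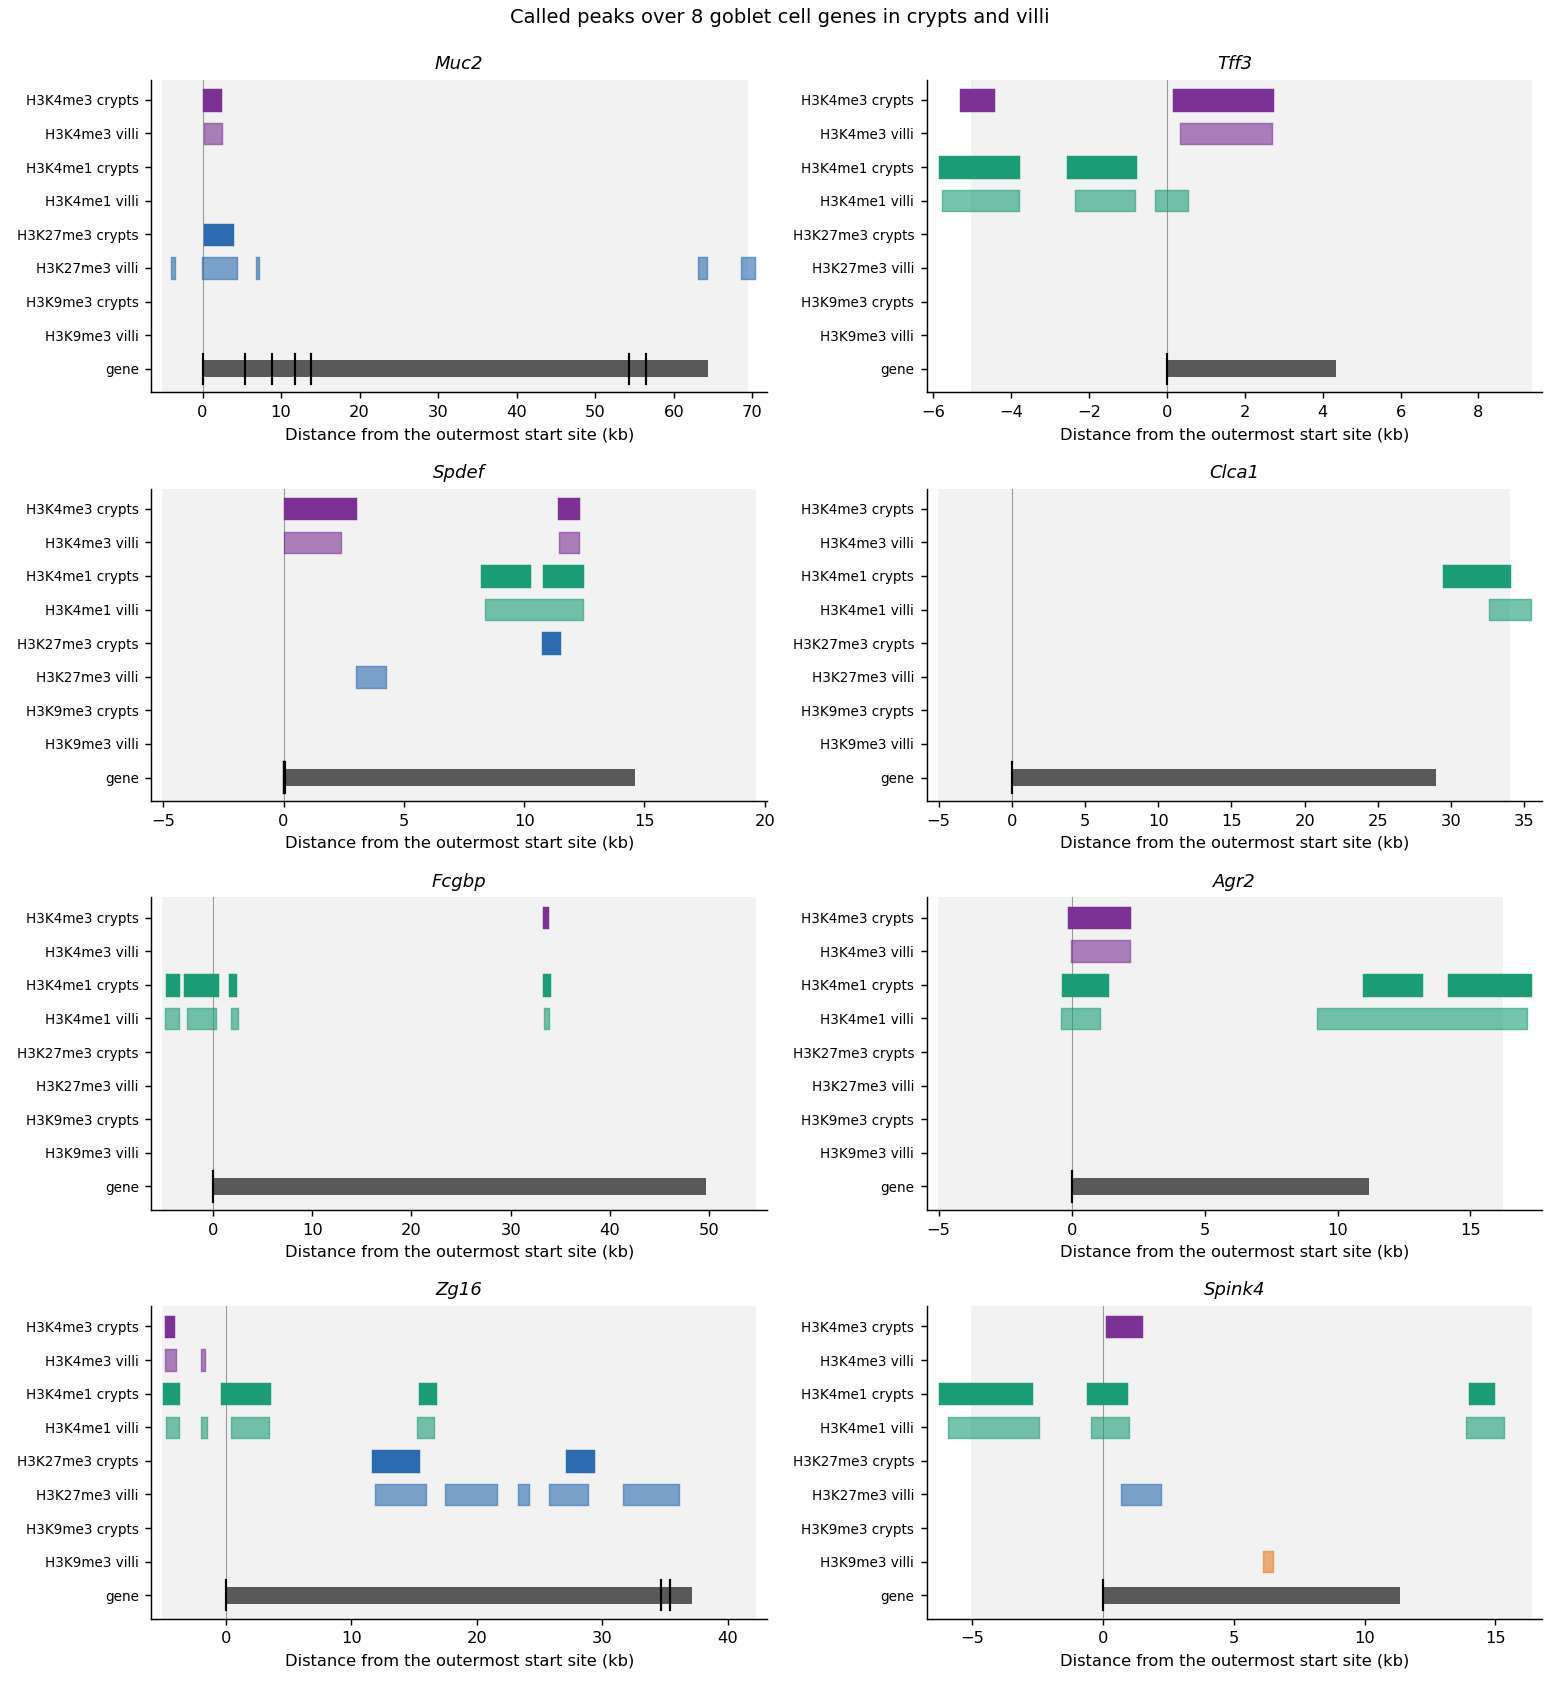
Called peaks over the 8 genes, by distance in kb from the outermost start site, with transcription to the right. Full colour stands for crypts and pale colour for villi, 1 library each, the dark bar is the gene, black ticks are start sites and the grey area is the gene body with 5 kb on each side. Muc2 had H3K4me3 and H3K27me3 at the same place, Spink4 had H3K4me3 in crypts and H3K27me3 in villi, and Zg16 had 2 H3K27me3 peaks in crypts and 5 in villi.

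With 1 library per compartment and mark no test between crypts and villi was possible, and a peak present in only 1 list can lie just below the threshold in the other. In whole tissue, fewer goblet cells and less of a mark per cell cannot be told apart, and neither can an H3 tail without the modification and an H3 tail removed by proteolytic clipping, which is the process the study is about. Marker genes of other cells also differed between the lists. Of 7 immune genes none had an H3K4me3 peak within 1 kb of a start site in crypts and 5 had one in villi (Ptprc, Cd3e, Cd3g, Cd8a and Gzma, not Cd79a or Lyz2), with ranks of 81.6 to 97.9% where 0% is the highest score of the list, and Cd3e and Cd3g also had start site H3K27me3 in villi only. Of 7 mesenchyme and vessel genes 1 had start site H3K4me3 in crypts and 2 in villi. The stem cell gene Olfm4 had it in crypts only, and the other 5 stem and cycling genes and all 7 enterocyte genes had it in both. What part these other cells have in the villi-only peaks below was not tested.

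At start sites H3K4me3 and H3K4me1 were each called at 5 members in crypts, and not at the same ones. Within 1 kb of a start site, H3K4me3 was called at Muc2, Tff3, Spdef and Agr2 in both compartments and at Spink4 in crypts only, which is 5 members in crypts and 4 in villi, against 57.7% and 57.9% of all genes. H3K4me1 was called at Tff3, Agr2, Fcgbp, Zg16 and Spink4 in both, 5 members against 57.9% and 56.1% of all genes. H3K27me3 was called at Muc2 in both compartments and at Zg16 and Spink4 in villi only, 1 and 3 members against 13.1% and 16.1%. With the villi list shortened to the size of the crypts list, Muc2 alone kept start site H3K27me3 in villi. No start site of a member had H3K9me3, which was called at 0.380% of all genes in crypts and 0.311% in villi, and Clca1 had none of the 4 marks there. Start sites without either H3K4 mark in both compartments were found for 35.0% of all genes, so that state of Clca1 was common.

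The start site H3K4me3 peaks of the members were low in score, and most were of ordinary width. In crypts they were 1383 bp wide at Spink4, 2301 bp at Agr2, 2312 bp at Muc2, 2560 bp at Tff3 and 2989 bp at Spdef, against a median of 1957 bp and quartiles of 1423 and 2634 bp over the genes with such a peak at their outermost start site, so Spink4 lay below the lower quartile and Spdef above the upper. In villi they were 2217 bp at Agr2, 2235 bp at Muc2, 2356 bp at Spdef and 2367 bp at Tff3, against a median of 1861 bp and quartiles of 1354 and 2581 bp. Their ranks lay from 73.3 to 88.2% in the crypts list and from 78.1 to 93.9% in the villi list, against medians of 33.3 and 33.0%. All 5 and all 4 lay in the lowest 30% of their list, where 11.6% of such genes lay in crypts and 10.7% in villi. The rank depends on the number of cells that carry the mark as well as on its amount, so a gene used in a minority of cells cannot be told apart here from a weakly marked one.

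These peaks also began inside the gene. Measured from the outermost start site, the upstream edge lay at +6 bp in crypts and +38 bp in villi for Spdef, at +93 and +244 bp for Muc2 and at +159 and +333 bp for Tff3, and at +124 bp in crypts for Spink4. Agr2 was the exception, with edges at −119 and −37 bp. Over the 11892 genes in crypts and 11843 in villi with 1 such peak at their outermost start site, the median upstream edge was −602 bp in crypts and −583 bp in villi, and the peak began downstream of the start site for 5.28% of them in crypts and 6.13% in villi. This was so for 4 of the 5 peaks of the members in crypts and 3 of the 4 in villi, although the Spdef peak of each compartment covered an inner start site of that gene. RefSeq gives Spdef as chr17:27714446-27731003, so from the start of that longer model the Spdef peaks begin farther inside the gene, and the Spdef stretch shown above lies within it, upstream of an inner RefSeq start. In terms of the sequences above, no H3K4me3 peak touched the 250 upstream bases of Muc2 or Spdef, whereas 137 bases of the Agr2 stretch in crypts and 55 in villi lay inside one. The Agr2 stretch ends at the RefSeq start, position 35992925, which lies inside the GENCODE start of 35992907 from which the edges are measured.

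The same peaks were poor in CpG sites. In the central 300 bases of the peak, crypts had 0 CpG sites at Spink4, 1 at Agr2, 2 at Spdef and 3 each at Muc2 and Tff3, against a median of 17 and quartiles of 8 and 28 over the 16489 H3K4me3 peaks of crypts. Villi had 0 at Spdef, 1 each at Agr2 and Tff3 and 3 at Muc2, against a median of 16. A count of 3 or fewer was found in 8.30% of the crypts list and 10.5% of the villi list. The 250 bases upstream of the 4 members shown above had CpG counts near the median of promoters. The Spink4 peak, which was called in crypts only, is shown with its central 300 bases at chr4:40920717-40921016 on the plus strand of GRCm38.p6, an intronic stretch without a CpG site and therefore without capitals.
Spink4: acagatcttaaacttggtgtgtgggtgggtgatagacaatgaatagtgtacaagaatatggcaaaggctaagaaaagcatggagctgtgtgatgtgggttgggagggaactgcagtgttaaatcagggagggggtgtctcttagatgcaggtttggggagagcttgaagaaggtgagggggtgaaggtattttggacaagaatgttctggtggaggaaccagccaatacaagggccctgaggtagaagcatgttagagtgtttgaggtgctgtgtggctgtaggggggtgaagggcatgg

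**Figure D2:**
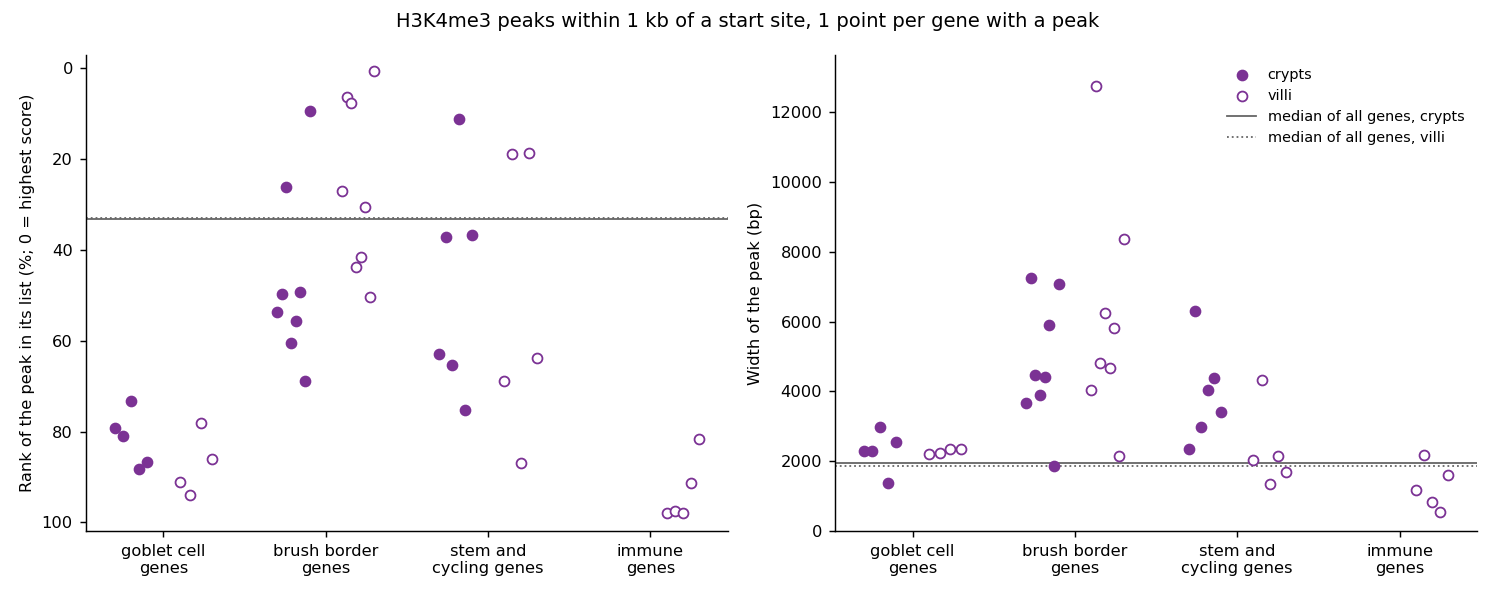
Rank in the list (left, %, 0 at the top is the highest score) and width (right, bp) of the H3K4me3 peak within 1 kb of a start site, 1 point per gene that has such a peak, filled for crypts and open for villi, with grey lines at the medians of all genes. The lists drawn are goblet cell, brush border, stem and cycling, and immune genes. The goblet cell genes ranked between 73.3 and 93.9%, below all 8 brush border genes in crypts and in villi, at widths of 1383 to 2989 bp. Their ranks partly overlapped those of stem and cycling genes, which reached 75.2% in crypts and 86.9% in villi, and of immune genes in villi (81.6 to 97.9%). The few Paneth and tuft cell genes with a peak (83.0 to 97.9%) are not drawn.

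Start site H3K4me3 was called at 5 of the 8 goblet cell genes in crypts and 4 in villi, near the 57.7 and 57.9% of all genes. These counts were lower than those of enterocyte genes and higher than those of Paneth and tuft cell genes, and the differences were not tested. Of 8 brush border genes, which encode digestive enzymes and villin of enterocytes, all had start site H3K4me3 in both compartments, with a median rank of 51.7% in crypts and 28.8% in villi and a median width of 4435 and 5325.5 bp. Of 8 Paneth cell genes 1 had it in crypts and 2 in villi, and of 8 tuft cell genes 1 had it in each. These few peaks were also low in rank, at 97.1% in crypts and 83.0 and 95.8% in villi for Paneth cell genes and at 83.8 and 97.9% for the tuft cell genes, so a low rank was not particular to the goblet cell genes. Start site H3K27me3 was found at no brush border and no Paneth cell gene, and at 4 of the 8 tuft cell genes in each compartment, against 1 and 3 of the goblet cell genes. The ranks of the brush border genes thus moved up from crypts to villi in the median, whereas the ranks of Muc2, Spdef and Agr2 moved down by 12.8, 4.83 and 12.0 percentage points and that of Tff3 moved by −0.659 points, which is up. The median shift over all 14941 paired H3K4me3 peaks was −0.990 points, with quartiles of −7.22 and 5.18.

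**Figure D3:**
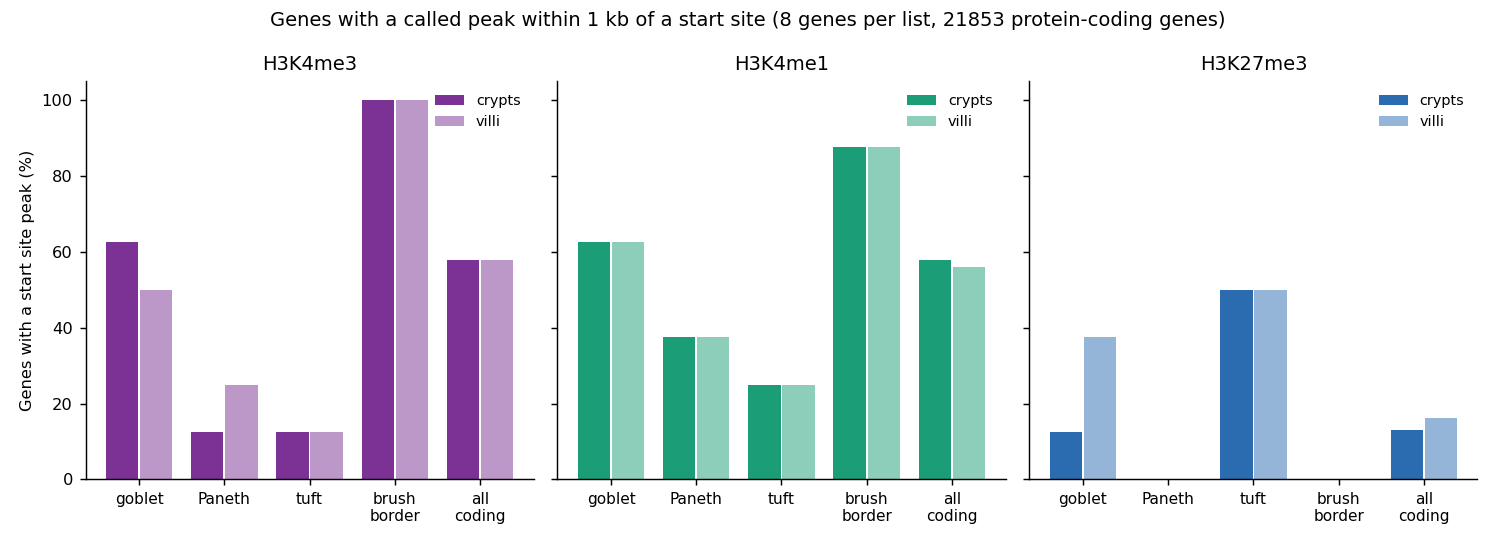
Share of genes (%) with a called peak within 1 kb of a start site, for 8 goblet cell, 8 Paneth cell, 8 tuft cell and 8 brush border genes and for all 21853 protein-coding genes. Full bars stand for crypts and pale bars for villi, and the H3K27me3 bar of the goblet cell genes goes from 1 gene in crypts to 3 in villi, and stays at 1 when the villi list is shortened to the size of the crypts list.

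Muc2 carried the active and the repressive mark at the same place and no H3K4me1. The gene lies at chr7:141690340-141754693 on the plus strand, with 7 annotated start sites, and all calls near a start site were at the outermost or just inside it. Its H3K4me3 peak was at chr7:141690433-141692744 in crypts, with a −log10 p of 25.9, and at chr7:141690584-141692818 in villi, with 12.8. A peak of H3K27me3 lay over it, 3728 bp wide in crypts at chr7:141690556-141694283 with a −log10 p of 10.1, and 4488 bp wide in villi at chr7:141690225-141694712 with 16.0. The peaks of both marks shared 2189 bp in crypts and all 2235 bp of the H3K4me3 peak in villi. Start sites with both marks were found in 6.59% of all genes in crypts and 7.87% in villi. Whether these marks lie on the same nucleosomes or in different cells cannot be told apart in this tissue.

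By score the Muc2 H3K27me3 peak had place 7392 of 7611 in the crypts list, close to the threshold, and place 5875 of 13797 in the villi list. As the lists differ in length, these places are not read as a shift. H3K4me3 ranked 81.0% in crypts and 93.9% in villi. In villi H3K27me3 had 4 further peaks in the Muc2 window, 538 bp wide upstream of the gene, 452 and 1122 bp wide inside it and 1788 bp wide beyond its end, all with a −log10 p of 10.2 to 11.4 and none with a counterpart in crypts. Of villi H3K27me3 peaks with a rank within 5 percentage points of these, 11.0 to 17.0% had a counterpart in crypts, so peaks of this score were mostly called in villi alone. No H3K4me1 was called in the window, and the nearest such peak was 16539 bp from a start site in crypts and 16179 bp in villi. H3K4me3 at a start site without H3K4me1 was found in 5.16% of all genes in crypts and 7.84% in villi. In villi the H3K27me3 peak covered 115 of the 250 upstream bases shown above, which no other peak touched in either compartment.

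Spink4 was the only member with start site H3K4me3 in 1 compartment only. The gene lies at chr4:40920052-40931395 on the plus strand. In crypts a 1383 bp H3K4me3 peak at chr4:40920176-40921558, intronic in full, had a −log10 p of 17.7, and in villi the nearest H3K4me3 peak was 11179 bp away. In villi a 1517 bp H3K27me3 peak at chr4:40920739-40922255, also intronic, had a −log10 p of 12.7, and in crypts the nearest H3K27me3 peak was 177014 bp away. A loss of start site H3K4me3 from the crypts to the villi list was found in 1.06% of all genes, and together with H3K27me3 called in villi only it was found in 20 genes, 0.0915%. Of the 232 genes with start site H3K4me3 in crypts only, 49.1% had start site H3K27me3 in villi, and 8.62% had it in villi and not in crypts. Both Spink4 calls depend on the cut in score, as the H3K27me3 peak was lost when the villi list was shortened to 7611 peaks and the H3K4me3 peak was lost at a score of at least 20. Of the 1651 crypts H3K4me3 peaks of like rank 72.2% had a counterpart in villi, and of the 1115 villi H3K27me3 peaks of like rank 18.0% had a counterpart in crypts.

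H3K4me1 was called at Spink4 in both compartments. Over the start site it was 1502 bp wide in crypts against 1448 bp in villi, at ranks of 23.7 and 29.1%, and upstream of the gene 3565 and 3497 bp wide at ranks of 4.56 and 33.8%, a shift of 29.2 percentage points where the upper quartile over all H3K4me1 pairs was 16.4. That upstream peak also held, or lay within 1 kb of, a start of the neighbouring gene Gm12397. Another H3K4me1 peak beyond the end of the gene was 974 bp wide in crypts against 1468 bp in villi. Spink4 was also the only member with H3K9me3, a 385 bp intronic peak in villi at chr4:40926174-40926558 with a −log10 p of 11.1. Such a window peak in villi only was found in 1.19% of all genes, and only 2 genes, Spink4 among them, had its combination of window calls over the 8 lists. This H3K9me3 peak was lost at a score of at least 20. Of the 424 villi H3K9me3 peaks of like rank 27.1% had a counterpart in crypts. The combination thus rests on calls that depend on the cut in score.

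Over its longer gene model, Zg16 had the most bases under H3K27me3 among the members, with more in villi. GENCODE gives the gene as chr7:127050156-127087328 on the minus strand, 37173 bp long with 3 start sites, whereas RefSeq gives chr7:127050156-127052675, 2520 bp long, so most of the window belongs to the longer model alone. H3K27me3 covered 5945 bp of the window in crypts, 12.6%, and 16601 bp in villi, 35.2%. Around the RefSeq model it covered 0 bp in crypts and 4391 bp in villi, less than at Muc2, with 3728 and 7373 bp. With the villi list at the size of the crypts list, the 4391 bp were lost and Muc2 had 4488 bp in villi. The 2 crypts peaks of Zg16, 2174 and 3771 bp wide, both overlapped peaks in villi, 3092 and 4082 bp wide. Villi had 3 more, of which the 4391 bp peak at chr7:127051262-127055652 lay over both downstream start sites, including the start of the RefSeq gene, with a −log10 p of 13.0. A second one, 4124 bp wide at chr7:127065770-127069893, had a −log10 p of 27.3 and a rank of 14.5%. A start of the non-coding gene Gm44939 lay in this peak or within 1 kb of it. Of villi peaks of like rank 93.3% had a counterpart in crypts, so a peak of this score in 1 list only was uncommon, whereas for the start site peak the share was 17.6%.

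Of the active marks, H3K4me1 alone was called at a start site of Zg16, the upstream one of the longer model. It was 3927 bp wide there in crypts and 3021 bp in villi, and its rank went from 18.5 to 58.7%. Another H3K4me1 peak lay inside the longer model, 15388 bp from the nearest start site in crypts and 15221 bp in villi, with widths of 1338 and 1364 bp. No start site of Zg16 had H3K4me3. The H3K4me3 peak near the upstream border of the window was 791 bp wide in crypts and 912 bp wide in villi. It held, or lay within 1 kb of, a start of the neighbour AI467606. A 379 bp H3K4me3 peak and a 540 bp H3K4me1 peak, 375 bp of which coincided, were called in villi only, 1653 and 1488 bp upstream of that start site.

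Tff3 and Agr2 had active marks alone, a pattern of window calls found in 9097 genes. Tff3 lies at chr17:31125306-31129646 on the minus strand. Its H3K4me3 peak covered most of the gene, 2560 bp in crypts and 2367 bp in villi. The H3K4me1 peak that began 3806 bp upstream was 2062 bp wide in crypts against 1977 bp in villi, and it had a −log10 p of 71.4 and rank 0.410% among 54642 peaks in crypts against 23.7 and 27% in villi. A second H3K4me1 peak, 791 bp upstream in crypts, ranked 78.7% there and 17.4% in villi. So the order of the 2 upstream peaks was opposite in the 2 lists.

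In crypts an 879 bp H3K4me3 peak lay inside that upstream H3K4me1 peak of Tff3, at chr17:31134092-31134970 with a −log10 p of 12.5, and in villi no H3K4me3 was called there. In villi an 836 bp H3K4me1 peak lay over the start site, where crypts had none. The central 300 bases of the upstream H3K4me1 peak in crypts, the highest-ranked peak over any member, are shown from chr17:31134332-31134631 on the minus strand of GRCm38.p6, with its 4 CpG sites in capitals, against a median of 3 over the H3K4me1 peaks of crypts.
Tff3: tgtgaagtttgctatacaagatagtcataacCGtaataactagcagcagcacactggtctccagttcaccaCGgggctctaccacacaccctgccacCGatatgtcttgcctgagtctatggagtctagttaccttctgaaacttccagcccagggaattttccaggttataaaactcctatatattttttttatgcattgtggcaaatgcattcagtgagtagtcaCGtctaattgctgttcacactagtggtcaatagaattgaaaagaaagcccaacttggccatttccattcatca

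Agr2, at chr12:35992907-36004087 on the plus strand, was the only member whose H3K4me3 and H3K4me1 peaks both crossed the outermost start site. H3K4me3 was 2301 bp wide in crypts against 2217 bp in villi, and H3K4me1 was 1759 and 1477 bp. Both H3K4me1 peaks covered all 250 upstream bases shown above. Around the end of the gene crypts had H3K4me1 peaks of 2226 and 3104 bp, both overlapped in villi by 1 peak of 7870 bp, and the share of the window with H3K4me1 was 28.4% in crypts and 39.7% in villi. The ranks of these peaks were high, 16.7 and 5.03% in crypts and 7.61% in villi.

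Spdef, at chr17:27714352-27728955 on the minus strand, had H3K4me3 at its start and again inside the gene. The start site peak was 2989 bp wide in crypts with a −log10 p of 41.2 and 2356 bp in villi with 26.9, the highest scores among the start site H3K4me3 peaks of the members in each compartment. An intragenic H3K4me3 peak was 894 bp wide in crypts against 795 bp in villi and lay inside H3K4me1, which had peaks of 1654 and 2046 bp in crypts and 1 peak of 4068 bp in villi. The CpG count of its centre was 13 in both compartments, near the medians of 17 and 16. H3K27me3 was called at different places, 752 bp wide at chr17:27717475-27718226 in crypts and 1235 bp wide at chr17:27724693-27725927 in villi, downstream of the start site H3K4me3 peak. Neither H3K27me3 peak had a counterpart in the other list, and of peaks of like rank 80.0% in crypts and 46.5% in villi did.

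Fcgbp and Clca1 had H3K4me1 as their main mark. Fcgbp lies at chr7:28071236-28120862 on the plus strand and had 4 H3K4me1 peaks in each compartment, each with a counterpart. The start site peak was 3514 bp wide in crypts against 2912 bp in villi, covering the whole stretch of 250 bases shown above, and its rank went from 69.7 to 97.0%. No H3K4me3 was called near the start site, and the nearest peaks were 20845 bp away in crypts and 20893 bp in villi. H3K4me1 at a start site without H3K4me3 was found in 5.32% of all genes in crypts and 6.06% in villi. A 484 bp H3K4me3 peak inside the gene, 33297 bp from the start site, was called in crypts only, with a −log10 p of 10.8, close to the threshold.

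Clca1, at chr3:145003817-145032776 on the minus strand, had a single called peak per compartment, of H3K4me1 beyond the end of the gene. The peak was 4527 bp wide in crypts with a −log10 p of 37.4, and the overlapping peak in villi was 2821 bp wide with 18.7. Within the window it covered 4484 and 1343 bp, the largest fall in H3K4me1 among the members, −1.74 on the log2 scale, but −0.13 when the window was extended to 10 kb, where Zg16 (−0.30) and Fcgbp (−0.16) fell more. The nearest H3K4me3 peaks were 69165 bp from the start site in crypts and 57761 bp in villi, and the nearest H3K27me3 peaks were 258590 and 617955 bp away.

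**Figure D4:**
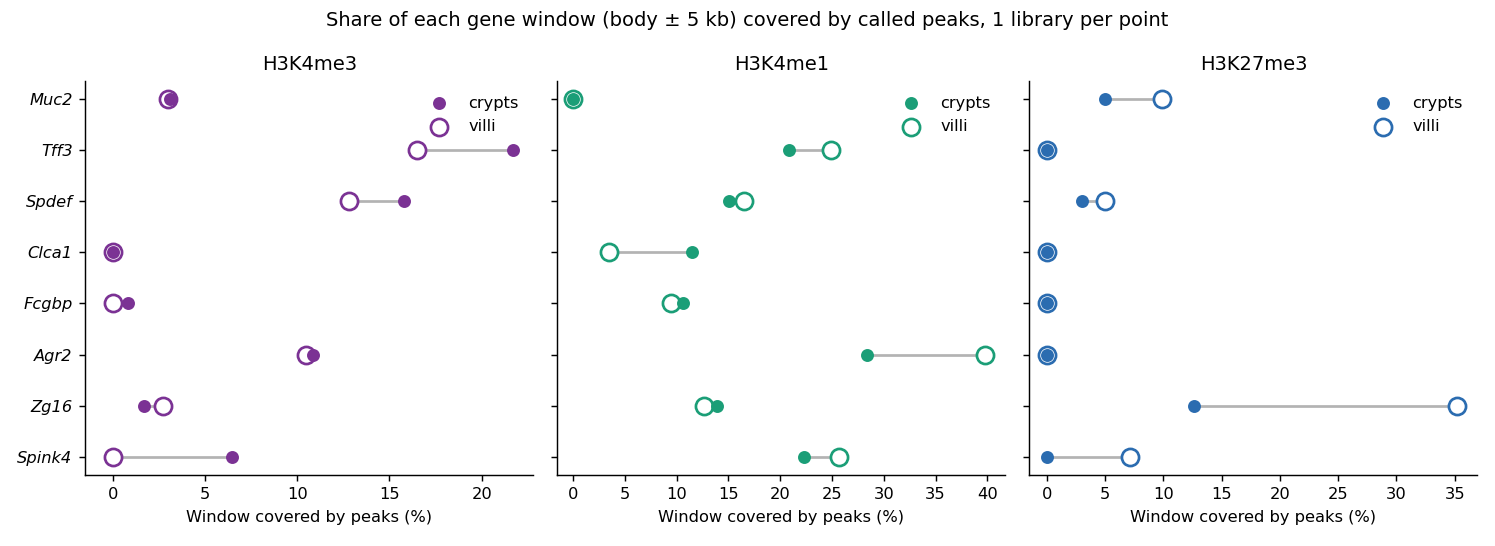
Share of each gene window (%) covered by peaks of H3K4me3, H3K4me1 and H3K27me3, filled for crypts and open for villi, 1 library per point and no error. H3K27me3 covered more in villi, whose list was longer, at Muc2, Spdef, Zg16 and Spink4, from 12.6 to 35.2% at Zg16, and was not called at the other 4 genes.

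Paired peaks allowed widths to be set side by side. For H3K4me3, 5 of 6 pairs over members were narrower in villi, with a median log2 ratio of −0.083, against −0.034 and 57.0% narrower over all pairs. For H3K4me1, 10 of 13 pairs that matched 1 to 1 were narrower in villi, with a median of −0.061, against −0.0061 and 50.7%. All 3 H3K27me3 pairs, at Muc2 and Zg16, were wider in villi, with a median of 0.27, and over all 4736 pairs the median was 0.32 with 20.7% narrower in villi. Ranks of the H3K4me1 pairs over members moved down towards villi by 16.1 percentage points in the median, with 10 of 13 lower in villi, against 0.083 over all such pairs, and those of the H3K4me3 pairs by 2.08 points, with 3 of 6 lower, against −0.990. With 6 and 13 pairs, several of them from the same gene, these differences were not tested, and the ranks of H3K27me3 pairs were not compared because its lists differ in length.

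Most H3K4me1 and H3K4me3 peaks over members had a counterpart in the other compartment. At an overlap of at least 1 bp, all 18 H3K4me1 peaks of crypts (100%, 95% Wilson interval 82.4 to 100%) and 16 of the 18 of villi (88.9%, 67.2 to 96.9%) were shared, against 81.7 and 82.1% of the whole lists. For H3K4me3 the shares were 6 of 9 in crypts (66.7%, 35.4 to 87.9%) and 6 of 7 in villi (85.7%, 48.7 to 97.4%), against 93.3 and 90.6%. For H3K27me3 they were 3 of 4 in crypts (75%, 30.1 to 95.4%) and 3 of 12 in villi (25%, 8.89 to 53.2%), against 90.4 and 44.4%. These intervals cover counting error only and treat neighbouring peaks of a gene as independent, which they are not.

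Further goblet cell and mucus genes were read in the same way, 28 genes listed by role. Start site H3K4me3 was called at 21 of them in crypts and 20 in villi, against 57.7 and 57.9% of all genes. H3K4me1 was called at 16 and 18, against 57.9 and 56.1%, and H3K27me3 at 4 and 9, against 13.1 and 16.1%, so that the H3K4me1 counts and the crypts H3K27me3 count lay near the background. No start site had H3K9me3. As for the 8 members, the H3K27me3 count was higher in villi, in which the whole list was longer. H3K4me3 was called at the start of Muc4, a membrane-bound mucin, and of Ern2, a stress sensor of the endoplasmic reticulum in mucous cells, in crypts only, and at Bcas1 in villi only.

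All 7 transcription factors of the list had start site H3K4me3 in both compartments. Atoh1, which commits cells to the secretory lineage, had it beside wide H3K27me3, 7155 bp in crypts and 7528 bp in villi, at ranks of 6.71 and 6.99%. Gfi1, which acts downstream of Atoh1, lay under start site H3K27me3 of 13075 bp in the crypts list, and the same stretch held adjoining peaks of 6386 and 6431 bp in the villi list, and H3K4me1 at the start site in villi only. Foxa2 had start site H3K27me3 peaks of 1674 and 3053 bp in villi only, and Creb3l1 had one of 888 bp close to the threshold. Foxa3 had start site H3K4me1 in villi only.

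Among 7 genes of mucin glycosylation, Fut2, a fucosyltransferase, lay in H3K27me3 in both compartments, with a start site peak of 7828 bp in crypts against 7757 bp in villi and start site H3K4me3 of 731 and 1896 bp. It also had an H3K9me3 peak inside its window, 659 and 448 bp wide. St6galnac1, a sialyltransferase, had a 1965 bp H3K27me3 peak over its start in villi only. Galnt12 had an 866 bp H3K9me3 peak in its body in villi only, and B3gnt6 a 1336 bp H3K27me3 peak in crypts only. Start site H3K4me1 was called in crypts only at C1galt1c1 and Ern2, and in villi only at C1galt1 and Tff2. At C1galt1 an overlapping crypts peak lay 1146 bp from the start site, and at Ern2 a villi peak lay 1101 bp from it, just outside the 1 kb limit.

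Among other secreted products, Reg4, a lectin of secretory cells, also had more H3K27me3 peaks in the longer villi list. It had 2 in crypts, 2468 and 566 bp wide, and 7 in villi, 422 to 5882 bp wide, 2 of them within 1 kb of its start site. Only those of 2551, 607 and 3153 bp were among the 7611 highest-scoring villi peaks. Retnlb, an antibacterial peptide, had a 780 bp H3K27me3 peak in villi only, and Lrrc26, a channel subunit, had one of 3226 bp in villi only. Bcas1 had a villi-only H3K27me3 peak of 1109 bp near an inner start site. Sytl2, which takes part in granule secretion, had start site H3K27me3 of 2458 bp in crypts against 4450 bp in villi. Of these 28 genes, 5 had start site H3K27me3 in villi only and none in crypts only, against 3.62% and 0.631% of all genes.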

How the data were processed

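ChIP-seq peak lists of mouse crypts and villi were used for H3K4me3, H3K4me1, H3K27me3 and H3K9me3, and the H3K9me2 lists (6 and 3 regions) held none over members. Per the study's methods, the authors added 5% Drosophila S2 chromatin, mapped the reads with Bowtie 1.1.2 (mm10 and dm6), removed duplicates and called peaks with MACS2 2.1.1 at p 1e-10. The deposited lists give positions and a score, taken as the authors' −log10 p-value (10 or more in each list), although a q-value is not excluded. The score is not scaled by the spike-in and was used only within a list. No read counts are given, so depth is unknown. Methods and labels differ on the chromatin amount, the bead type and the time with beads.

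Peaks were joined to GENCODE M21 protein-coding genes at 1 bp of overlap or more. Start site peaks were those up to 1 kb from the start of any protein-coding transcript. Rank is the place by score in the list, in percent. Peaks of like rank lay within 5 percentage points. Sequences were read from RefSeq GRCm38.p6, where 4 of 8 members had a promoter entry (Clca1, Spink4, Tff3 and Zg16 had none). Python 3.11.15, NumPy 2.4.6, pandas 2.3.3, SciPy 1.17.1 and Matplotlib 3.10.9 were used, and overlap counting was tested on simulated data. The members and lists were chosen with earlier results of these data known. All 8 members are described. Of 28 further genes those with H3K27me3 or H3K9me3, or a start site H3K4 peak in 1 compartment only, are named. No test was possible with 1 library per group. Alternatives covered the windows, the score, merging, the overlap rule and the gene model of Zg16.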

Additional observations from a re-analysis of the deposited data

How the results depend on the processing

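No paired analysis was possible because each compartment and mark had 1 library. Of 162 values under alternatives, 85 of the counts and shares stayed within 1.5 times the main count or within the Wilson interval of the main share and 26 moved, all but 1 of them when weak peaks were removed. The intervals rest on few peaks and are wide, such as 30.1 to 95.4% for crypts H3K27me3. A share that stayed within its interval therefore says little about stability. At a score of at least 20, start site H3K4me3 was left at 3 members in crypts and 1 in villi, start site H3K4me1 at 2 and 2, and start site H3K27me3 at 0 and 0, while window H3K4me3 was left at 3 and 2, H3K27me3 at 0 and 1 and villi H3K9me3 at 0. With the top 50% of each list, H3K4me3 was left at 0 members in both compartments, in the window and at the start site, H3K27me3 at 0 windows and 0 start sites in crypts and 1 start site in villi, villi H3K9me3 at 0 and start site H3K4me1 at 2 and 2. The shared share of the crypts H3K4me1 peaks was 72.2% at a reciprocal overlap of 50% and 81.8% of 11 peaks in the top 50%, and that of the villi H3K27me3 peaks was 0 of 4 in the top 50%. With the villi H3K27me3 list at the size of the crypts list, a choice made after seeing the data, start site H3K27me3 was left at 1 member, Muc2, and 60% of 5 peaks were shared. The start site H3K27me3 of Spink4 and Zg16 in villi thus depends on the length of that list. Only the coverage of Spdef by H3K4me1 changed direction, to −0.063 on the log2 scale when peaks under 1 kb apart were merged. Another 5 coverage values moved without changing direction. With 10 kb on each side, H3K4me1 of Clca1 went from −1.74 to −0.13 and H3K4me3 of Zg16 from 0.71 to 0.083. At a score of at least 20, H3K4me1 of Tff3 went from 0.26 to 1.19 and that of Zg16 from −0.14 to −1.72. With the shortened villi list, H3K27me3 of Muc2 went from 0.98 to 0.27. With the RefSeq model of Zg16, also added later, windows with H3K4me3 were 6 in crypts and 4 in villi, and with H3K27me3 2 and 4. Windows with H3K4me1 were then 6 and 6 and start sites with it 4 and 4, as Zg16 lost its H3K4me1 calls in both compartments. Depth is unknown, so a missing peak is a missing call and not an absent mark.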
